A study of Mus musculus with 10 samples.

Results

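The genes described here are 34 mouse genes of the response to low oxygen outside glycolysis, of 55359 genes in the deposited table. They were chosen by their symbols from a list that holds the HIF factors, the proteins that control them and target genes with roles other than sugar breakdown. The list was made with earlier results of these data known. All 34 were in the table and all 34 passed the filter on low values. They were measured by strand-specific RNA sequencing in 10 orthotopic pancreatic tumors, grown in the pancreas of C57BL/6 mice (C57BL/6 J in the study's methods) from KPC K8484 cells injected when the hosts were 10 weeks old. KPC K8484 is a mouse pancreatic cancer line with the allele Trp53 R172H/+ and with Pdx1-Cre, a recombinase driven by a promoter of the pancreatic lineage, and the study's methods describe the injected cells as luciferase-expressing. The labels name this 1 line as the source of all 10 tumors, although their titles also carry the term PDX, and the tumor genotype was not tested. The 5 CTRL tumors (N1, N2, N4, N5 and N6) grew in normoglycemic mice that drank regular water, and the 5 D30 tumors (T1, T2, T4, T5 and T7) grew in mice made hyperglycemic with 30% dextrose water, in both cases for 14 days.

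Cells sense oxygen through HIF, a transcription factor made of an alpha subunit (Hif1a, Epas1 or Hif3a) and the partner Arnt. While oxygen is present, the prolyl hydroxylases Egln1, Egln2 and Egln3 mark the alpha subunit, Vhl binds the mark and the subunit is destroyed, and Hif1an blocks its coactivator contact. When oxygen is low the alpha subunit persists and switches on genes for vessel growth, acid export, mitochondrial clearance, collagen maturation and restraint of growth signals. Since this control acts mainly on the protein, the mRNA of a HIF subunit and the mRNA of its targets are separate measurements. Pancreatic tumors are known for dense stroma, few perfused vessels and low oxygen.

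Recovered reads ranged from 29915331 to 42122304 in the CTRL tumors and from 29192261 to 37126175 in the D30 tumors. Values are the deposited normalized counts, in which reads were scaled by 1 size factor per tumor. The genes that define the tumor epithelium were abundant, with Krt19 between 45447 and 114649 and Cdh1 between 15241 and 33811, but Epcam ranged only from 0 to 191. Tumors T5, T4 and N4 stood apart from the rest. Tumor T5 had a summed hemoglobin value of 183833, against 4025 to 12189 in the other 9 tumors. Tumor T4 held 841 reads of Y-linked genes, against 0 in the others, while the methods state that male and female hosts were used in equal numbers. Its genes of highest GC content lay below its genes of lowest GC content by a log2 difference of -1.47, against -0.89 in N1 and -0.04 to 0.64 in the other tumors. Tumor N4 had an adipocyte marker score of 3.74, against -1.05 to 0.67 elsewhere. The number of the 34 genes that passed is therefore given also without T4, without T5 and without both. In whole tumors, fewer cells of a type and less RNA per cell cannot be told apart.

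To show what these genes carry in front of them, the 250 bases before the start site are printed for the 4 genes that passed the test in the upward direction and have an entry, and for Bnip3, the gene with the largest log2 fold change. The sequences are from RefSeq (GRCm38.p6), 5′ to 3′ along the gene, and the capitals mark the core motif to which HIF is known to bind, ACGTG or GCGTG, read on either strand (CACGT or CACGC on the other).
Car9: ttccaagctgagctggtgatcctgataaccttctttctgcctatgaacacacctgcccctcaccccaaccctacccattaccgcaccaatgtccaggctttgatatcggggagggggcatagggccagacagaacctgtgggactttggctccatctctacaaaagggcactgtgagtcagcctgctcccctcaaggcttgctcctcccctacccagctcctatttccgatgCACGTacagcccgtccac
Egln3: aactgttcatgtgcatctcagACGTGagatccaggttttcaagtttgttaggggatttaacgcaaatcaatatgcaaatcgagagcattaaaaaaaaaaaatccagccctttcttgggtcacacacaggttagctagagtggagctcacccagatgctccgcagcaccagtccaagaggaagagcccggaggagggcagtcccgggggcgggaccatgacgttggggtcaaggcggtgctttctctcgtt
Ankrd37: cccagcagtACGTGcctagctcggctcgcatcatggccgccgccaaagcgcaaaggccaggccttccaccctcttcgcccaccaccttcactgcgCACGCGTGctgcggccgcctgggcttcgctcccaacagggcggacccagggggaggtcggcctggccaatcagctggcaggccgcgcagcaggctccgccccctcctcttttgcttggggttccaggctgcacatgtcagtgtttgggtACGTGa
Ddit4: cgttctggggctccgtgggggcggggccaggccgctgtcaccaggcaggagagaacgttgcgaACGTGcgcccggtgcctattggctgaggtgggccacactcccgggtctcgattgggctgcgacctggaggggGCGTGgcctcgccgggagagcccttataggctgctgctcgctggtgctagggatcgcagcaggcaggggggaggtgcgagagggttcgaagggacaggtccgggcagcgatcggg
Bnip3: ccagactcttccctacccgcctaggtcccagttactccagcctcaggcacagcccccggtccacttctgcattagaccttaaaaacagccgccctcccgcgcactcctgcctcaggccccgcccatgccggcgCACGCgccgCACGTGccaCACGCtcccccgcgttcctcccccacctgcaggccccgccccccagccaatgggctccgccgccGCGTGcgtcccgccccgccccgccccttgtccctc
The Car9 window lies at chr4:43506776-43507025 on the plus strand, and its single match begins 18 bases before the start. The Egln3 window, chr12:54203875-54204124 on the minus strand, has 1 match that begins 229 bases before the start. The Ankrd37 window at chr8:45999851-46000100, on the minus strand, holds 4 matches, beginning 241, 155, 152 and 6 bases before the start, of which those at 155 and 152 overlap. The Ddit4 window, chr10:59951771-59952020 on the minus strand, has matches at 187 and 115 bases. The Bnip3 window, chr7:138909507-138909756 on the minus strand, contains 4 separate places with the motif, and the one at 108 bases is the palindrome CACGTG. Of the 34 genes, 28 matched the table, with 38 promoters between them, and Plod2, Bhlhe40, Bnip3l, Epas1, Ndrg1 and Stc1 did not. The core motif was found in 29 of the 38 (76.3%), against 38.6% of all 32851 promoter windows of the same length, and 2 or more places were found in 47.4% against 13.7%. The palindrome was in 10.5% against 6.02%. Both Vegfa promoters were searched, and one holds 2 matches and the other 0. A match is a description of letters and not a measured binding site. Because the list holds HIF targets, a larger share with the motif follows in part from how the genes were chosen. Genes with several promoters count more than once, and base composition was not matched.

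The question put to the data was how this program differed between tumors of hyperglycemic and normoglycemic mice. Egln3, Car9, Ankrd37 and Ddit4 rose and Stc1 fell in the D30 tumors, so that 5 of 34 genes passed an adjusted p of 0.05 by limma, against 2.76% of the 24560 genes tested (1.4% higher and 1.36% lower). All but 1 of the 34 genes had a mean of at least 100, and among the 12215 tested genes at that level 3.51% passed. In direction, 29 of the 34 log2 fold changes were positive (27 without T4 and T5), against 45.3% of all tested genes and 48.3% of those at a mean of at least 100. At an unadjusted p under 0.05, 20 were higher and 1 was lower, against 7.79% and 9.54% of tested genes (10.2% higher at a mean of at least 100, and 17.3% of all genes in either direction). The median log2 fold change of the 34 was 0.94, while that of all tested genes was -0.06. As the list was made with earlier results of these data known, these shares describe the genes and are not independent support. Most tumor epithelium markers moved in the same direction, but their mean did not. Of 10, 7 were higher and 2 lower at an unadjusted p under 0.05. Their log2 fold changes ran from -3.17 to 1.13 with a median of 0.62, and their sum ranged from 224877 to 355401 in CTRL and from 377706 to 500656 in D30. The mean of log2(normalized count + 1) over the 10 markers differed by -0.01 between D30 and CTRL, and by -0.15 without T4 and T5. Only Cldn7 passed in limma, as lower, and 3 passed as higher in DESeq2. The fibroblast (10 of 10), macrophage (8 of 10) and acinar (9 of 10) markers were lower in D30, with unadjusted p under 0.05 for 7, 5 and 5. The part of these markers in the values of the 34 genes was not tested. The values of the CTRL and D30 tumors did not overlap for 6 of the 34 genes, 5 of them higher in D30, against 6.19% of all genes (2.87% higher) and 7.67% of genes with a mean of at least 100.

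How many of these genes passed depended on tumors T4 and T5 and on the count model. Without T4, 10 genes passed (background 6.43%), without T5, 6 (3.54%), and without both, 13, of which 11 were higher (9.97%, with 5.09% higher). The median log2 fold change was 1.04 without T4, 0.63 without T5 and 0.61 without both. DESeq2 on the recovered reads called 18 of the 34, 17 of them higher, against 8.07% of all genes (4.71% higher), and gave no adjusted p for Egln1 and Bhlhe40. edgeR with TMM called 10 (2.61%). The 5 genes named above passed in each of these fits. Leaving out N2 removed Car9, Egln3 and Ddit4 and left 2 of the 34, Stc1 and Ankrd37, against a background of 1.14%. Leaving out N1, N5, N6 or T7 removed Egln3 and Ddit4 and left 3, with backgrounds of 1.92%, 1.38%, 1.35% and 1.76%.

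**Figure D1:**
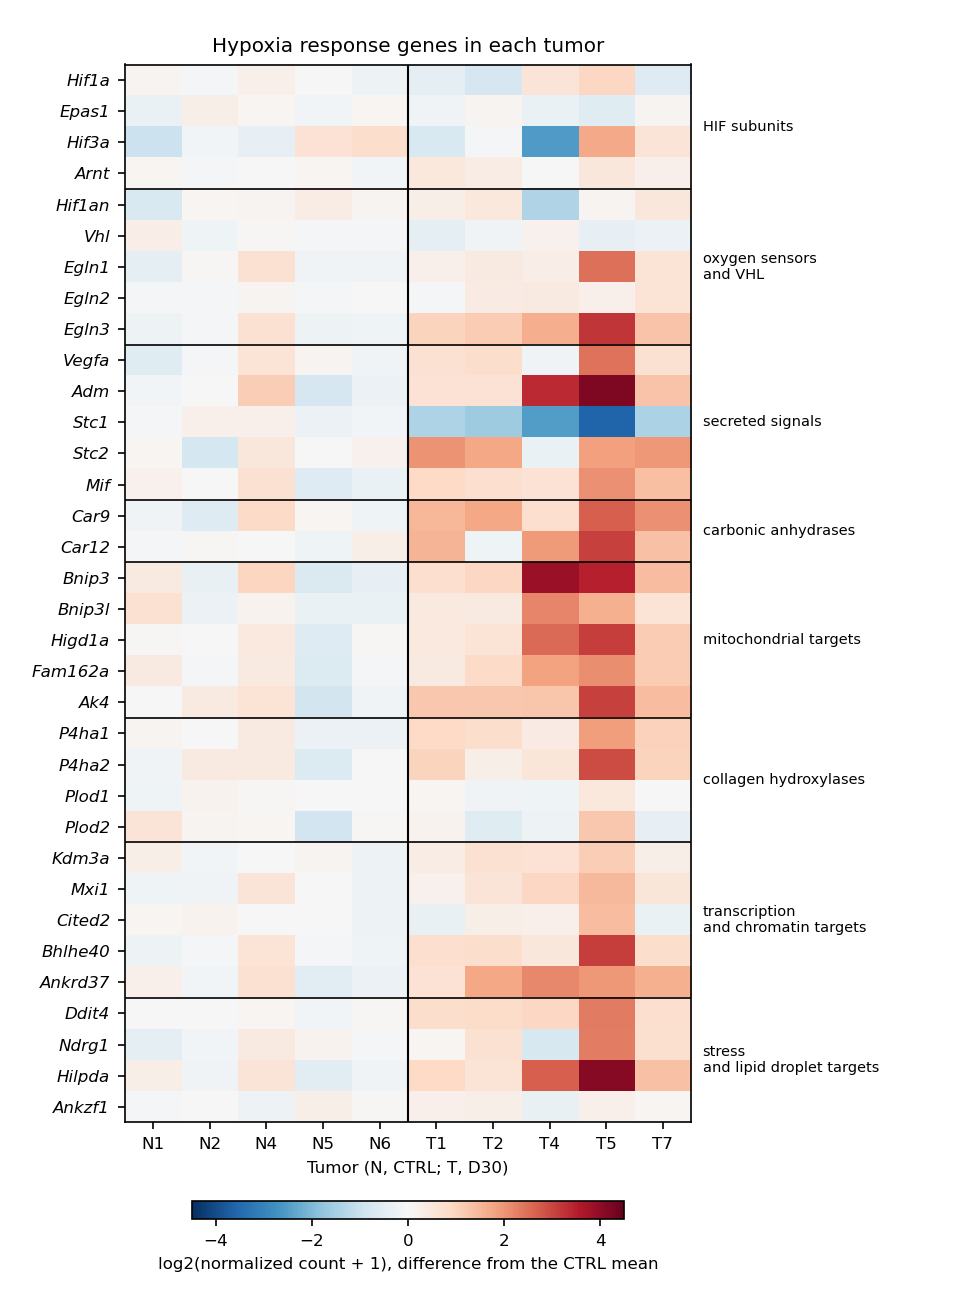
Each cell shows 1 gene in 1 tumor, as log2(normalized count + 1) minus the mean of the 5 CTRL tumors, with genes grouped by role (blue lower, red higher). The T5 column is the deepest red for most genes, T4 is high for the mitochondrial genes other than Ak4 and low for Hif3a, Hif1an and Stc1, and Stc1 is blue in all 5 D30 tumors.

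The HIF subunits did not move as the targets did. Hif1a, the subunit induced in acute low oxygen, had normalized counts of 4960, 4219, 5290, 4441 and 3814 in the CTRL tumors and 3427, 2647, 6720, 8633 and 3015 in the D30 tumors, in the order given above. The D30 tumors lay on both sides of the CTRL range, with T1, T2 and T7 below every CTRL tumor and T4 and T5 above every one. The log2 fold change of Hif1a was -0.05 (SE 0.31, adjusted p = 0.957), and its 95% interval ran from -0.71 to 0.61. Without T4 and T5 it was -0.58 (adjusted p = 0.0291). Hif1a has the lowest transcript GC content of the 34 genes (41.3%), T4 was the tumor with the strongest shift toward transcripts of low GC content, and the part of that shift in the T4 value was not tested. After the GC correction the log2 fold change of Hif1a was 0.04.

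Epas1, which encodes HIF-2 alpha, had 766, 1123, 994, 864 and 998 in CTRL and 843, 1023, 759, 641 and 1030 in D30. The ranges overlapped and the log2 fold change was -0.15 (SE 0.20, adjusted p = 0.740). Epas1 is also abundant in endothelium. Of 12 endothelial markers, 10 were lower in D30, 5 of them at an unadjusted p under 0.05, against 9.54% of all tested genes. Only Cdh5, the cadherin of endothelial junctions, passed the test, with a log2 fold change of -1.45 and adjusted p = 0.0117. The summed markers ranged from 15877 to 24298 in CTRL and from 9388 to 14784 in D30, of which Cdh5 alone had 7205 to 14529 and 2480 to 6142. The endothelial score, in which each marker has the same weight, ranged from 0.16 to 0.44 in CTRL and from -1.17 to 0.42 in D30. The groups thus overlapped in this score through T7. The part of the endothelial markers in the Epas1 and Vegfa values was not tested. Hif3a, a subunit with inhibitory forms, was close to the limit of measurement, from 16 to 56 in CTRL and from 5 to 108 in D30. Arnt ranged from 2060 to 2393 in CTRL and from 2204 to 3197 in D30, with a log2 fold change of 0.30 (adjusted p = 0.359).

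Of the oxygen sensors, Egln3 differed most. Its prolyl hydroxylase is itself a HIF target and forms a feedback on HIF. Egln3 had 1465, 1663, 2781, 1483 and 1506 normalized counts in CTRL and 3427, 3786, 5379, 16001 and 4232 in D30. All D30 tumors lay above all CTRL tumors, N4 was the highest of the controls and T5 was far above the rest. The mean was 1780 ± 565 (SD, n = 5) in CTRL and 6565 ± 5326 in D30, with a log2 fold change of 1.66 (SE 0.37, adjusted p = 0.0323). Without both T4 and T5 the value was 1.14 (adjusted p = 0.00389).

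Egln1, the main oxygen sensor of most cells, had 2371, 3356, 5149, 2865 and 2853 in CTRL and 3710, 4188, 3958, 17712 and 4852 in D30. Its log2 fold change of 0.80 (SE 0.39, adjusted p = 0.314) rested largely on T5, and it was 0.38 without T5 and 0.40 without T4 and T5. Egln2 ranged from 2727 to 3146 in CTRL and from 2774 to 4375 in D30 (log2 fold change 0.32, adjusted p = 0.350). Vhl had 2267, 1600, 1908, 1724 and 1697 in CTRL and 1347, 1625, 2106, 1427 and 1513 in D30. Those ranges overlapped, with a log2 fold change of -0.20 (SE 0.18, adjusted p = 0.611). Hif1an, the asparaginyl hydroxylase that blocks HIF activity, had a log2 fold change of 0.00 (adjusted p = 0.999), and 0.01 after the GC correction. The lowest tumor of each group was the one with the most negative GC difference, N1 at 1762 and T4 at 1099, the others ranging from 3041 to 4018. Its transcript GC content is 51.5%, and genes near that content (bin median 51.4%) had a median log2 shift of -0.01 in N1 and -0.10 in T4. The cause of the 2 low values was not tested.

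The list of the remaining VHL ligase parts and HIF cofactors held 12 genes. None passed the test in limma or DESeq2 with all tumors. Siah2 passed without T4 (adjusted p = 0.0430, background 6.43%). Siah2 and Arnt2 passed without T4 and T5 (adjusted p = 0.0428 and 0.0220, background 9.97%). With all tumors 2 of 12 had an unadjusted p under 0.05, against 17.3% of all tested genes. In direction 7 of 12 were higher, against 45.3%, with a median log2 fold change of 0.14. The smallest p values belonged to Siah2, a ligase that acts on the Egln proteins (log2 fold change 0.67, adjusted p = 0.184), and to Arnt2, a neural relative of Arnt (log2 fold change -1.02, adjusted p = 0.276).

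Among the secreted signals, Stc1 fell and 4 others had positive log2 fold changes that did not pass. Stc1, the glycoprotein hormone stanniocalcin-1, had 506, 636, 635, 445 and 490 in CTRL and 204, 175, 93, 43 and 201 in D30. No D30 tumor reached the lowest control, and T5, where most of the 34 genes were highest, had the lowest Stc1. The mean was 543 ± 87.8 in CTRL and 143 ± 71.7 in D30 (SD, n = 5), with a log2 fold change of -2.11 (SE 0.39, adjusted p = 0.0127). Stc1 passed in all 10 fits that left out 1 tumor. Summed fibroblast markers, of which all 10 were lower in D30 and none passed in limma while 2 passed in DESeq2 and 7 had an unadjusted p under 0.05, ranged from 80407 to 142607 in CTRL and from 32313 to 108203 in D30, and their part in the Stc1 difference was not tested.

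The related hormone Stc2 had 816, 444, 1103, 751 and 875 in CTRL and 3094, 2550, 629, 2770 and 2988 in D30. Of the D30 tumors, T1, T2, T5 and T7, lay above every control and T4 lay among the controls, so that the ranges overlapped. For Stc2 the log2 fold change was 1.46 (SE 0.41, adjusted p = 0.0797) with all tumors and 1.90 without T4 and T5 (adjusted p = 0.000351). Without T4 alone its adjusted p was 0.000525.

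Vegfa, the main growth factor for vessels, had 6332, 8857, 14267, 10185 and 8312 in CTRL and 14807, 16035, 8272, 50083 and 14876 in D30. T4 lay below the other 4 D30 tumors and within the control range, and T5 was the highest. Vegfa had a log2 fold change of 0.89 (SE 0.39, adjusted p = 0.265), 1.15 without T4, 0.50 without T5 and 0.72 without both (adjusted p = 0.0528). Adm, the vasodilator adrenomedullin, ranged from 96 to 355 in CTRL. In D30 it had 254, 258, 1664, 3025 and 394, and the 2 high tumors were T4 and T5. Adm had a log2 fold change of 2.02 (SE 0.65, adjusted p = 0.126). Mif, a cytokine, had 7939, 6950, 11126, 4714 and 5705 in CTRL and 13025, 11812, 11063, 29153 and 17630 in D30, and only T4 lay below the highest control, N4. For Mif it was 1.15 (SE 0.30, adjusted p = 0.0593), and 0.999 without T4 and T5 (adjusted p = 0.0205).

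**Figure D2:**
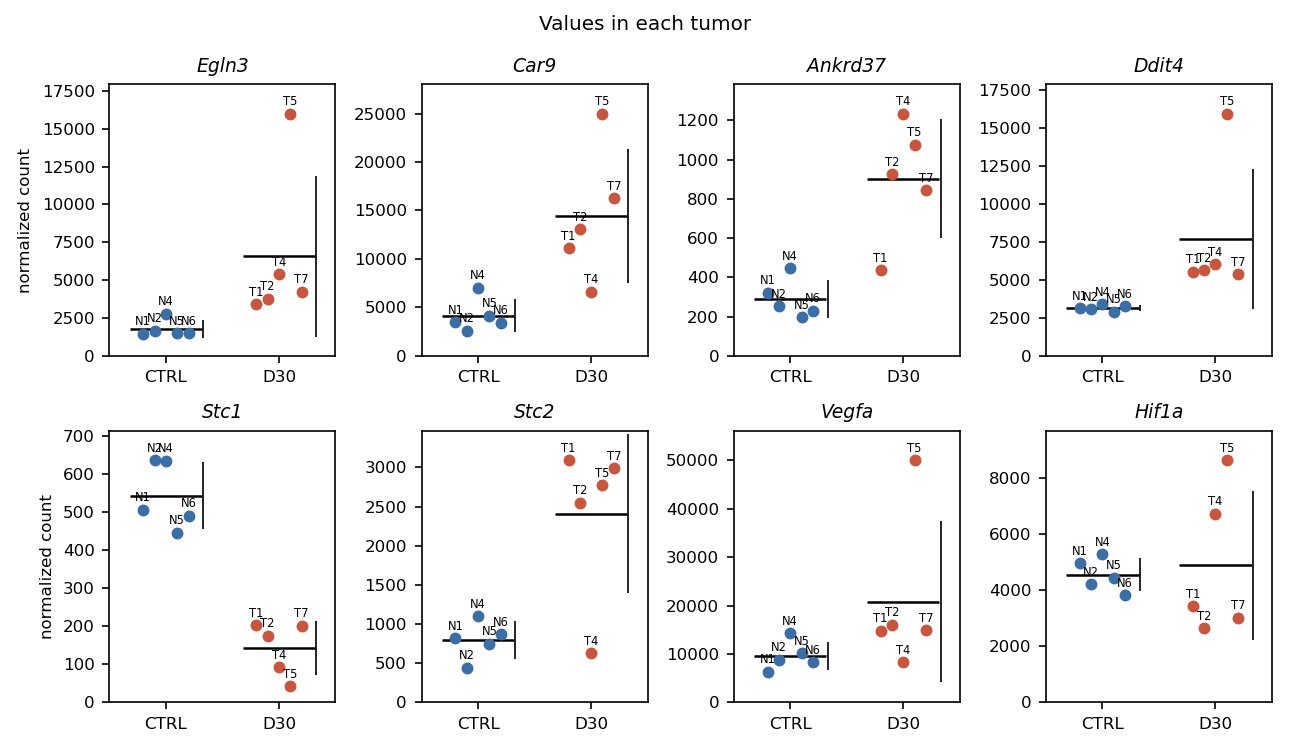
Normalized counts of 8 genes in each of the 5 CTRL (blue) and 5 D30 (red) tumors, with horizontal lines at the means and vertical lines spanning 1 SD to either side. Egln3, Ddit4 and Stc1 show no overlap between the groups, Stc2 and Car9 overlap through T4 alone, and Hif1a splits into T4 and T5 above and T1, T2 and T7 below the controls.

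Both carbonic anhydrases, membrane enzymes that handle the acid load of tumor cells, had positive log2 fold changes. Car9, a widely used marker of low oxygen whose promoter is printed above, had 3456, 2618, 7026, 4143 and 3441 in CTRL and 11091, 13103, 6629, 24995 and 16295 in D30. The only overlap was between T4 and N4. The mean was 4137 ± 1703 in CTRL and 14422 ± 6871 in D30 (SD, n = 5), with a log2 fold change of 1.75 (SE 0.34, adjusted p = 0.0153). It was 1.77 without T4 and T5 (adjusted p = 0.000986). Without N2 the adjusted p of Car9 was 0.0557. Car12 was low in every tumor, from 46 to 64 in CTRL and at 153, 46, 201, 452 and 132 in D30. T2 was as low as the controls, and the log2 fold change of 1.52 (SE 0.48) had an adjusted p of 0.120.

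T4 and T5 were both above the other D30 tumors for Bnip3, Bnip3l, Higd1a and Fam162a, of the 5 mitochondrial genes, and T5 alone for Ak4. Bnip3, a receptor for the removal of mitochondria, had 1907, 1160, 2846, 914 and 1118 in CTRL and 2474, 2753, 21444, 16348 and 3828 in D30. T4 and T5 were 7.10 and 5.42 times the mean of T1, T2 and T7, of which T1 and T2 were below the highest control. The log2 fold change of Bnip3 was 2.09 (SE 0.59, adjusted p = 0.0791), and 1.03 without T4 and T5 (adjusted p = 0.0536). Bnip3l, a related receptor that also clears mitochondria in maturing red cells, had 7718, 4053, 5425, 3903 and 3947 in CTRL and 6557, 6462, 22333, 14533 and 7356 in D30. Its highest tumor was T4, whose score of erythroid markers was -0.98, while that of T5 was 3.74. The log2 fold change of Bnip3l was 1.05 (adjusted p = 0.137).

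Fam162a, a mitochondrial protein of the low-oxygen response, had 3172, 2257, 3123, 1540 and 2249 in CTRL and 3197, 4318, 8394, 10151 and 5288 in D30. The groups did not overlap, though T1 exceeded N1 only slightly, and the log2 fold change was 1.27 (SE 0.31, adjusted p = 0.0514). Ak4, a mitochondrial adenylate kinase, had 60, 81, 94, 34 and 55 in CTRL and 142, 143, 146, 522 and 163 in D30. All D30 tumors were again above all controls, with a log2 fold change of 1.63 (SE 0.41, adjusted p = 0.0554). Higd1a, a protein of the respiratory chain, ranged from 859 to 1721 in CTRL and from 1709 to 11072 in D30 (log2 fold change 1.57, adjusted p = 0.0951). All 5 mitochondrial genes had a lower control value in N5 than in any other CTRL tumor. Bnip3 and Bnip3l have transcript GC contents of 41.6% and 41.9%, and with the GC correction, an alternative added after the data were seen, Bnip3, Bnip3l, Fam162a and Ak4 passed as well (9 of 34, background 3.39%).

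Of the collagen hydroxylases, which modify collagen in the endoplasmic reticulum, the prolyl enzymes and the lysyl enzymes differed in their values. P4ha1 had 2895, 2675, 3509, 2240 and 2219 in CTRL and 4991, 4656, 3429, 9941 and 5513 in D30, where T4 alone lay within the control range (log2 fold change 1.003, SE 0.26, adjusted p = 0.0589). P4ha2 ranged from 203 to 419 in CTRL and from 377 to 2402 in D30, with T5 the highest (log2 fold change 1.15, adjusted p = 0.187, and 0.76 without T4 and T5). Plod1 had a log2 fold change of 0.05, with an interval of -0.33 to 0.43, and Plod2 of 0.05, with an interval of -0.70 to 0.79. The difference between prolyl and lysyl enzymes was not tested.

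Among the genes of transcription and chromatin, Ankrd37 rose. Ankrd37, an ankyrin repeat protein known as a direct HIF target, had 323, 252, 447, 197 and 231 in CTRL and 436, 928, 1235, 1077 and 844 in D30. The overlap was between T1 and N4 alone, and the highest tumor was T4 rather than T5. The mean was 290.1 ± 98.9 in CTRL and 904 ± 301 in D30 (SD, n = 5), with a log2 fold change of 1.62 (SE 0.31, adjusted p = 0.0141), and Ankrd37 passed in all 10 fits that left out 1 tumor.

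Bhlhe40, a repressor also called Dec1, had 4619, 5122, 8269, 5096 and 4792 in CTRL and 9234, 9504, 7661, 46813 and 9381 in D30. Only T4 lay below the highest control, N4, and T5 was 4.99 times the mean of T1, T2 and T7. The log2 fold change of Bhlhe40 was 1.19 (SE 0.42, adjusted p = 0.164), 0.71 without T5 and 0.78 without T4 and T5 (adjusted p = 0.0179). Kdm3a, a histone demethylase, ranged from 4483 to 6373 in CTRL and from 6274 to 11322 in D30 (log2 fold change 0.61, adjusted p = 0.124). Mxi1, an antagonist of Myc, ranged from 1823 to 3237 in CTRL and from 2444 to 5997 in D30 (log2 fold change 0.74, adjusted p = 0.146). Cited2, which competes with HIF for its coactivator, was between 2590 and 3333 in CTRL and between 2375 and 7996 in D30 (log2 fold change 0.25, adjusted p = 0.705, and -0.12 without T4 and T5).

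In the group of stress and lipid droplet genes, Ddit4 rose. Ddit4, also called Redd1, restrains mTORC1 signaling, and its values were 3138, 3090, 3391, 2914 and 3288 in CTRL and 5535, 5643, 6044, 15929 and 5387 in D30. The controls were tightly grouped, all D30 tumors lay above them, and 4 of the 5 D30 tumors were within 5387 to 6044. The mean was 3164 ± 184 in CTRL and 7707 ± 4602 in D30 (SD, n = 5), with a log2 fold change of 1.14 (SE 0.27, adjusted p = 0.0449). This was close to the threshold. It was lost in 8 of the 10 fits without 1 tumor and in the fits scaled by library size alone and without a filter on low values, while without T4 and T5 the adjusted p was 0.00167 at a log2 fold change of 0.80.

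Hilpda, which blocks lipid breakdown at lipid droplets, had 1646, 1242, 2050, 962 and 1244 in CTRL and 2577, 2094, 8819, 23829 and 3416 in D30. The groups did not overlap, and T5 was 8.84 times and T4 3.27 times the mean of T1, T2 and T7. Its log2 fold change was 1.92 (SE 0.55, adjusted p = 0.0863), and 0.94 without T4 and T5 (adjusted p = 0.0226). Ndrg1 had 8706, 10519, 15049, 12748 and 11105 in CTRL and 12051, 18436, 6905, 56796 and 18881 in D30, with T4 the lowest of all 10 tumors and T5 the highest (log2 fold change 0.62, adjusted p = 0.501, and 0.95 without T4 and 0.19 without T5). Ankzf1, a factor of ribosome quality control, had a log2 fold change of 0.09 with an interval of -0.30 to 0.48 (adjusted p = 0.847).

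**Figure D3:**
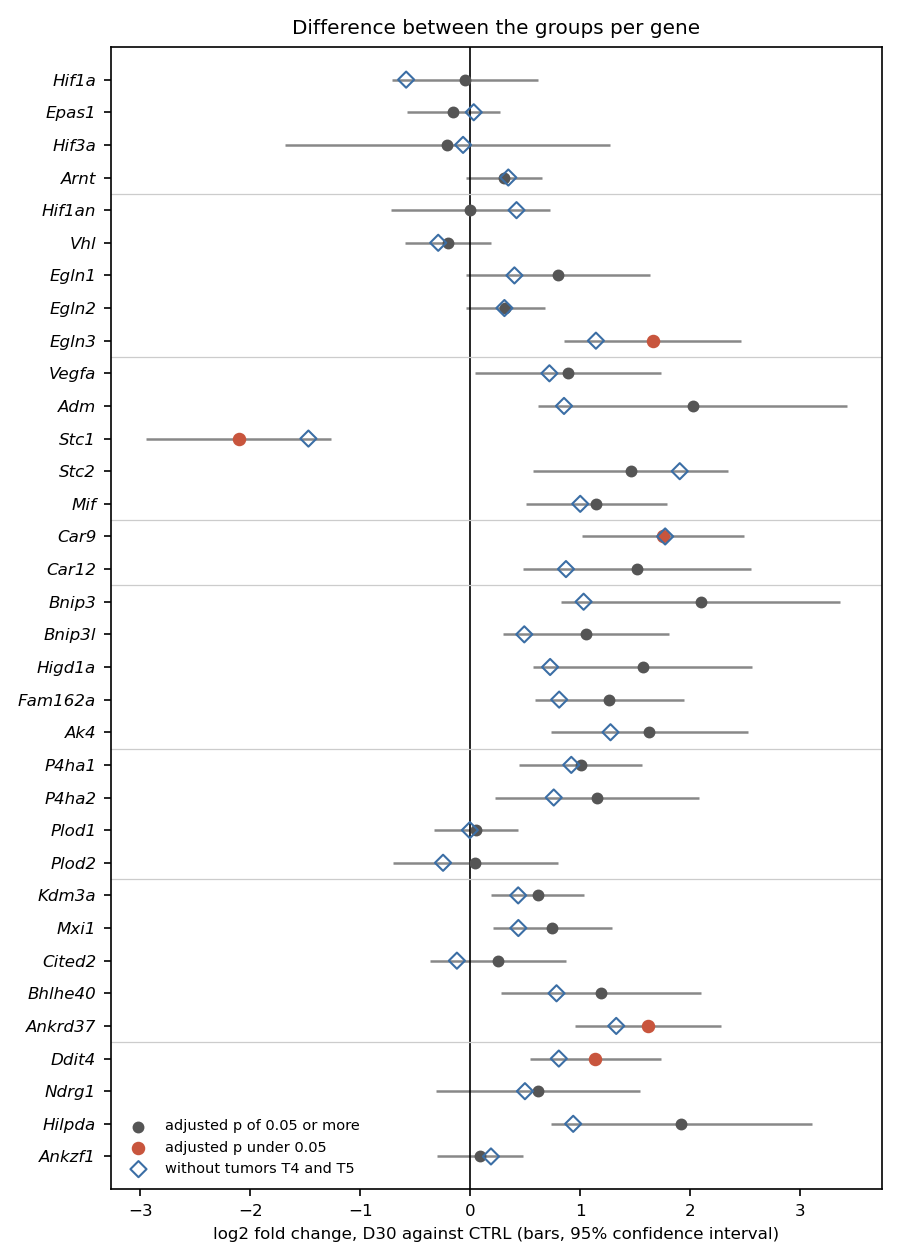
Filled points show the log2 fold change of D30 against CTRL for each of the 34 genes, on the log2(normalized count + 1) scale, with 95% confidence intervals, and open diamonds show the value without T4 and T5. The 5 red points are the genes with an adjusted p under 0.05, and most diamonds of the mitochondrial group lie closer to 0 than the filled points.

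The same genes were also summed up in each tumor as a score, the mean deviation of log2(normalized count + 1) from the mean of the 10 tumors. Over all 34 genes it was -0.43, -0.44, -0.05, -0.59 and -0.48 in CTRL and 0.04, 0.09, 0.24, 1.33 and 0.29 in D30. Every D30 tumor was above every CTRL tumor, but N4 and T1 lay close together and T5 was far from the other D30 tumors. The difference was 0.80 with all tumors, 0.84 without T4, 0.57 without T5 and 0.54 without both. By role, the difference was 1.63 for the carbonic anhydrases, 1.52 for the mitochondrial genes, 0.94 for stress genes, 0.88 for transcription genes, 0.68 for secreted signals, 0.56 for collagen hydroxylases, 0.51 for the sensors and -0.03 for the HIF subunits. The order was set partly by T4 and T5. Without both, the mitochondrial difference was 0.87 and that of the secreted signals 0.60.

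**Figure D4:**
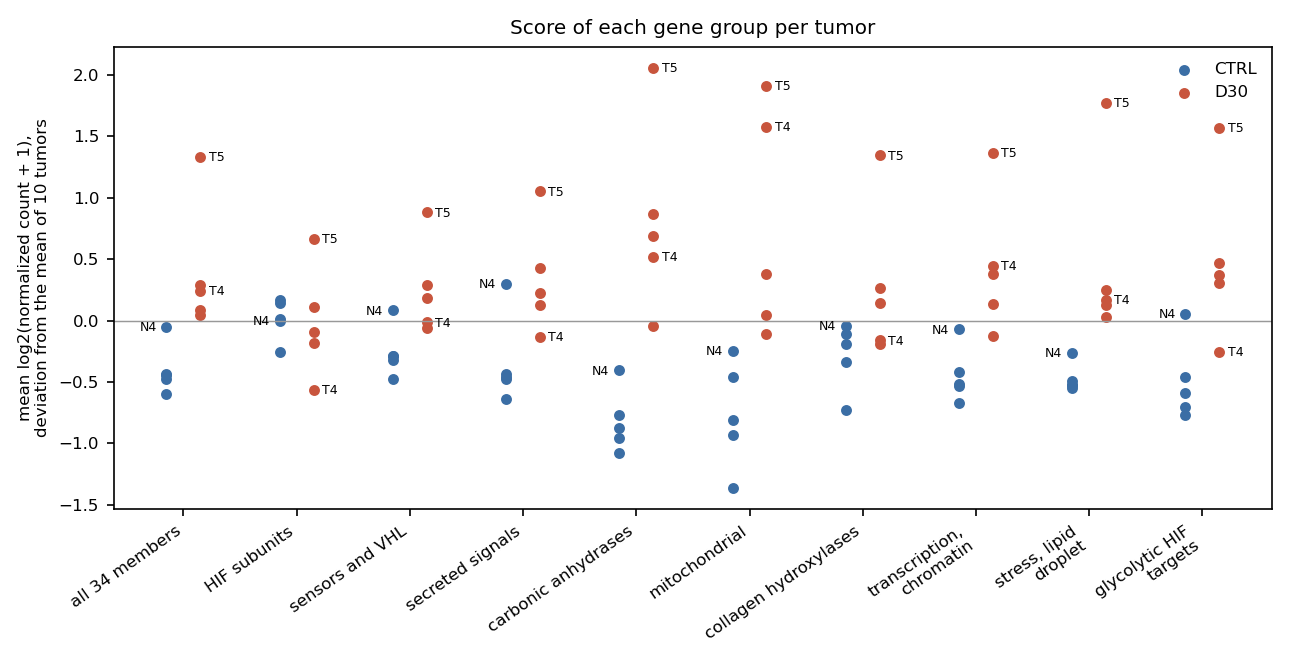
Each point is 1 tumor's score for a gene group, the mean deviation of log2(normalized count + 1) from the mean of 10 tumors, with CTRL in blue and D30 in red and N4, T4 and T5 named. T5 has the highest point in each group, T4 lies near T5 only in the mitochondrial group and is the lowest of all for the HIF subunits, and N4 is the highest control for all 34 members together.

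T5 had the highest value of the 10 tumors for 24 of the 34 genes, while it was the highest for 18.9% of all tested genes. Its largest excess over the mean of T1, T2 and T7 was 10.02-fold for Adm, followed by Hilpda (8.84), Bnip3 (5.42), Higd1a (5.15) and Bhlhe40 (4.99). All 8 neutrophil markers had positive log2 fold changes, of which none passed in limma, 2 passed in DESeq2 and 4 had an unadjusted p under 0.05, and their sum reached 16497 in T5, against 679 to 3337 in CTRL. T5 also had the lowest endothelial score, -1.17. The part of these values and of the hemoglobin reads in the T5 values was not tested. Among the controls, N4 had the highest value for 20 of the 34 genes, against 18.7% of tested genes, and its adipocyte score is given above.

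T4 was different in kind. It was highest of all 10 tumors for 3 of the 34 genes, Bnip3, Bnip3l and Ankrd37, against 24.3% of tested genes. Compared with the mean of T1, T2 and T7 it had 0.14 times the Hif3a, 0.22 times the Stc2, 0.29 times the Hif1an, 0.42 times the Ndrg1, 0.49 times the Car9 and 0.54 times the Vegfa, and 5.51 times the Adm, 3.45 times the Higd1a, 3.29 times the Bnip3l and 3.27 times the Hilpda. T5 was above that mean for Ndrg1 (3.45), Vegfa (3.29) and Car9 (1.85), where T4 was below it.

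**Figure D5:**
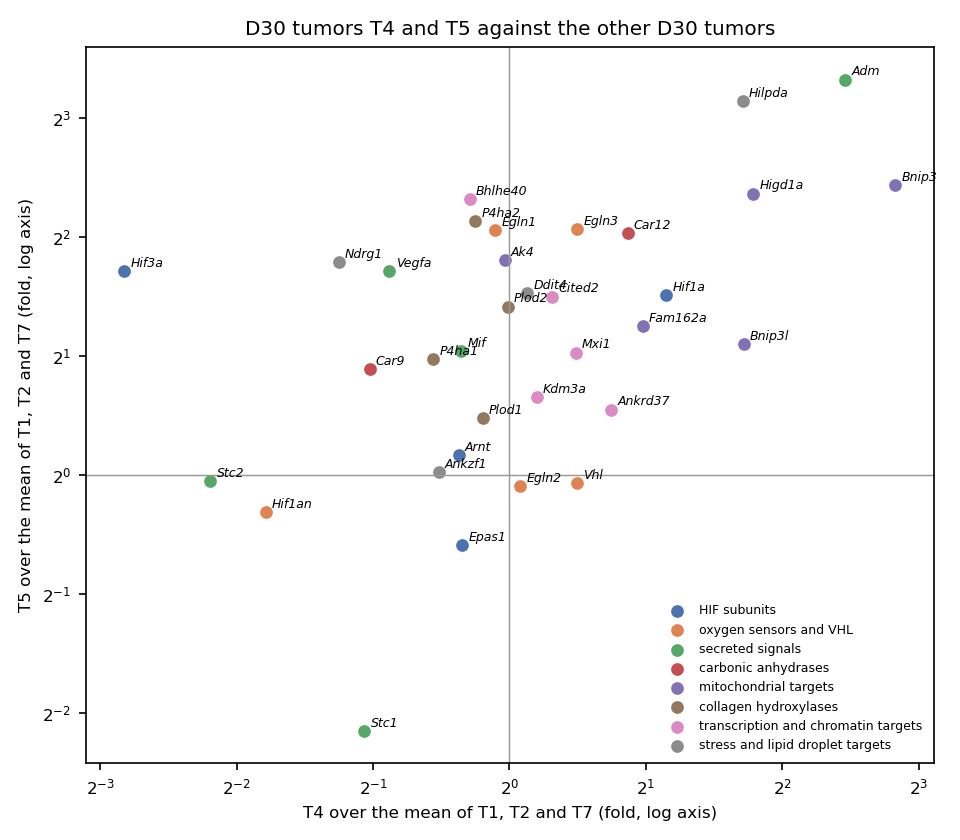
Each point is 1 gene, placed by its value in T4 (horizontal) and in T5 (vertical) over the mean of T1, T2 and T7, both on log2-spaced axes, with lines at 1. Bnip3, Higd1a, Adm and Hilpda are high in both tumors, Vegfa, Ndrg1 and Car9 are high in T5 and low in T4, and Stc1 is low in both.

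Per kilobase of exon, Mif was the most abundant of the 34 genes in both groups, at 9781 normalized counts per kilobase in CTRL and 22197 in D30 (group means). In the D30 mean it was followed by Hilpda (7386), Fam162a (7376) and Car9 (6260), while Hif3a was the lowest at 6.28. The place of Hilpda rested largely on T5, at 23829 normalized counts against a mean of 4226 in the other D30 tumors. For Fam162a these values were 10151 and 5299, and for Car9 24995 and 11779. Car9 had been at 1796 per kilobase in CTRL, below Fam162a (2904) and Vegfa (2238).

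Other targets of HIF were counted for comparison. Of 36 further targets outside glycolysis, 35 were tested and 29 were higher in D30, with a median log2 fold change of 0.50. The median was 0.18 without T5, and 0.19 without T4 and T5, where 25 were higher. T5 was the highest of the 10 tumors for 27 of the 35 (18.9% of all tested genes). At an unadjusted p under 0.05 in limma, 8 were higher, against 7.79% of tested genes. Epo was at 0 in all 10 tumors and was not tested. Tfrc and Ero1l passed the test, against 2.76% of all genes. Without T4, 3 of the 35 passed (background 6.43%), without T5, 3 (3.54%), and without both, 4 (9.97%). Of these, 3, 2 and 3 were higher. Bhlhe41 passed as lower without T5 (log2 fold change -0.88, adjusted p = 0.0327) and without both (-0.85, adjusted p = 0.0115). Tfrc, the transferrin receptor, rose by a log2 fold change of 1.10 (SE 0.21, adjusted p = 0.0141), from 1532 to 2685 in CTRL to 3355 to 5236 in D30, with no overlap. Ero1l, an oxidase of protein folding, rose by 1.91 (SE 0.44, adjusted p = 0.0350), from 1906 to 5832 in CTRL to 6816 to 35011 in D30, again with no overlap, and DESeq2 gave it no adjusted p. Ero1l was lost without N1, N2, N5, N6, T2 or T7 (adjusted p up to 0.104) and Tfrc without N2 (adjusted p = 0.0549). All 17 glycolytic targets were higher, with a median of 0.99, and 3 passed (background 2.76%). These were Aldoc (log2 fold change 1.58, adjusted p = 0.00239), Pgk1 (1.38, adjusted p = 0.0183) and Ldha (1.17, adjusted p = 0.0371). Of the 17, 10 passed without T4 (background 6.43%), 3 without T5 (3.54%), 10 without both (9.97%) and 10 with DESeq2 (8.07%). Aldoc passed in all 10 fits without 1 tumor, Pgk1 was lost without N2, N5 or N6, and Ldha was kept only without N4 or T4. The glycolytic score was 0.06 in N4 and -0.26 in T4, so that the groups overlapped through the same N4 and T4 as Car9.

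Several of the genes share their position with another gene on the opposite strand. This is so for Car9, Ankrd37, Stc1, Bnip3, Fam162a and Egln2 among others, and Hif1a overlaps a gene of the same strand. The libraries were strand-specific, but the strand setting of the counting is not given in the sources used here, so reads of such a pair may not have been told apart.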

How the data were processed

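RNA from 10 tumors was sequenced, 5 per group. The authors trimmed the reads, aligned them with STAR 2.7.0e and deposited 1 normalized signal per gene and tumor, in the form of DESeq2's normalized counts. The submitters' processing notes name GRCm39 and the methods name hg38, the table lists mouse Ensembl identifiers, and RSEM is listed among the software, but the annotation release and the settings of the counting are not given in the sources used here. All deposited signal values were whole multiples of 1 step per tumor, and 100% of the recovered reads were whole within 0.01. Columns marked N were taken as CTRL and T as D30, the only other group, and no column was tied to 1 animal.

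The test planned for values that are not counts was limma (version 3.58.1, in R 4.3.3), whose moderated statistics followed the trend of the variance with the mean, on log2(normalized count + 1), for the 24560 genes with a mean of at least 1, with Benjamini-Hochberg adjustment over all of them. Every adjusted p is from this fit unless another tool is named. The fit was also run on simulated data in which no tumor deviated as T4 and T5 do. That run cannot show how the fit handles such tumors. Alternatives used edgeR 4.0.16, DESeq2 1.42.0 and limma-voom on the recovered reads, other pseudocounts, filters and scalings, and leaving out each tumor. The fit without T4 and T5 and the GC correction, in 20 bins of transcript GC content, were added after the data were seen. Fold changes are on the log2(value + 1) scale, and p values weigh the difference between the group means against the spread of these tumors within their groups.

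Genes were named by GENCODE M21 (GRCm38), which matched 94.1% of identifiers, and this also gave exon lengths, GC content and overlaps. Promoters are from RefSeq. A further allele of the cell line is not reported here. All 34 genes are accounted for. Values in every tumor are given for genes that passed, genes whose groups do not overlap, and Hif1a, Epas1, Vhl, Egln3, Vegfa, Car9, Bnip3 and Ddit4, with further genes for their differences between tumors added after their values were seen. From the other target lists, genes that passed and the 2 with the smallest p were named. The genes and lists were chosen with earlier results of these data known. The markers of T cells (8 of 8 lower, 0 passed in limma, 1 in DESeq2, 2 with an unadjusted p under 0.05), macrophages (8 of 10 lower, Csf1r and Cd163 passed), tumor epithelium (8 of 10 higher, as given in the results) and acinar cells (high in N2, N4, N6 and T4) were summed up in the same way.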

Additional observations from a re-analysis of the deposited data

Results flagged for a closer look

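In 11 of the 68 groups of 5 tumors (34 genes in 2 groups), 1 tumor lay far from the other 4 by Dixon's criterion. Chance flags about 1 in 20 groups, and the 34 genes are not independent. T5 was the distant tumor in 5 of the 11, T4 in 3, N4 in 2 and N1 in 1.

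T5 was distant on the high side for Egln1 at 17712 (other D30 tumors 3710 to 4852), Ak4 at 522 (142 to 163), P4ha2 at 2402 (377 to 631), Bhlhe40 at 46813 (7661 to 9504) and Ddit4 at 15929 (5387 to 6044). T4 was distant on the low side for Hif1an at 1099 (3058 to 4018), Stc2 at 629 (2550 to 3094) and Ankzf1 at 945 (1267 to 1410). In the CTRL group, N4 was distant on the high side for Egln3 at 2781 (1465 to 1663) and Bhlhe40 at 8269 (4619 to 5122), and N1 on the low side for Hif1an at 1762 (3041 to 3569). The cause was not tested for any of them.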

How the results depend on the processing

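Of 782 log2 fold changes of the 34 genes under 23 alternatives, 688 kept their direction and their side of the threshold, 47 newly passed it, 16 no longer passed it and 31 changed sign, all of the last in 8 genes that did not pass with all tumors. The number of the 34 genes that passed was 5 with all tumors, against 2.76% of all genes. It was 18 with DESeq2 (8.07%), 10 with edgeR under TMM (2.61%) or DESeq2's size factors (2.66%), and 9 with the GC correction (3.39%). It was 13 without T4 and T5 (9.97%), and 2 to 10 when 1 tumor was left out (2 without N2, 1.14%, and 10 without T4, 6.43%). The number of all genes that passed, 678, was 1982 with DESeq2, 2418 without T4 and T5, and 279 to 1573 when 1 tumor was left out. The number of the 34 genes without overlap, 6, was 10 with upper quartile scaling, 14 without T4 and T5, and 6 to 16 when 1 tumor was left out (16 without N4, 13 without T4). The share of all genes without overlap was taken only for the main fit with all tumors (6.19%), and groups of fewer tumors separate more easily. The other counts without overlap therefore have no background and are not read as a result. Scaling by library size alone moved the median log2 fold change of all genes to -0.27, and 4 of the 34 genes passed, against 3.53% of all genes. The median of the 34 was then 0.72, and 0.63 to 1.07 when 1 tumor was left out. The cause of these shifts was not tested.

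With all tumors the 8 genes that changed sign had log2 fold changes between -0.21 and 0.25. Hif1a was 0.11 with DESeq2 and with edgeR under its size factors, 0.085 with edgeR's TMM and 0.043 with the GC correction. Hif3a was 0.24, 0.24 and 0.22 in the first 3 of these. Hif1an was -0.0087 with TMM, -0.010 with limma-voom and -0.22 with library size alone, which also gave Plod1 -0.17, Plod2 -0.18 and Ankzf1 -0.13. Without T4 and T5, Epas1 was 0.031, Plod1 -0.0041, Plod2 -0.25 and Cited2 -0.12. When 1 tumor was left out, the values ranged from -0.29 to 0.13 for Hif1a, -0.69 to 0.38 for Hif3a, -0.17 to 0.34 for Hif1an, -0.053 to 0.12 for Plod1, -0.24 to 0.20 for Plod2 and -0.038 to 0.40 for Cited2. No paired analysis was possible because the column numbers do not match the replicate numbers that the labels give. Counting depth limited Hif3a, Car12 and Ak4, with values under 100 in every CTRL tumor, more than the other genes.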
